A study of Mus musculus with 16 samples.

Results

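Macrophages use arginine both to make nitric oxide and to make polyamines, and 10 genes of these routes were followed across 16 RNA-seq libraries of bone marrow-derived macrophages. They are Nos2 and Gch1 for nitric oxide, Ass1 and Asl for rebuilding arginine, Arg1 and Arg2 for splitting it, and Odc1, Srm, Sms and Sat1 for polyamines. They were chosen by name, each as the row of the deposited count table whose Ensembl identifier maps to that symbol, and make up 10 of its 43430 genes. The cells came from C57BL/6J mice, and per the labels marrow was grown with macrophage colony-stimulating factor (mCSF) at 20 ng/mL, harvested on day 6 and moved to MEM medium. The 4 groups were cells in MEM without serine given LPS at 100 ng/mL, cells in complete MEM given the same LPS, cells in MEM without serine and no LPS, and cells in complete MEM and no LPS. RNA was taken 4 h after LPS, and each group had 4 libraries, numbered 1 to 4. The time without serine is not given in the sources used here. The labels name no genetic change in any group and do not say whether the 4 replicates came from separate animals, so the spread behind each p-value is that between these libraries and may be in part technical. By the Xist and Y-linked counts below, the libraries numbered 1 differed in sex from the rest. Whether the rest came from separate animals is not known. The libraries were of whole cultures, in which fewer cells of a type and less RNA per cell cannot be told apart.

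LPS, the lipopolysaccharide of Gram-negative bacteria, is sensed by macrophages through a Toll-like receptor. Inducible nitric oxide synthase, the product of Nos2, turns arginine into citrulline and nitric oxide, a gas that damages microbes, and it needs tetrahydrobiopterin, whose synthesis starts with GTP cyclohydrolase, the product of Gch1. Argininosuccinate synthase (Ass1) and argininosuccinate lyase (Asl) convert citrulline back to arginine, while the arginases split arginine into urea and ornithine, from which ornithine decarboxylase (Odc1) makes the polyamine putrescine. High Nos2 is a textbook mark of mouse macrophages stimulated with LPS, and high Arg1 of those treated with interleukin-4.

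Total counts per library ran from 6573849 to 7892215 in LPS-treated cells without serine, from 6240112 to 8092528 in LPS-treated cells with serine, from 2871477 to 10043362 in untreated cells without serine and from 5760734 to 7845261 in untreated cells with serine. Replicate 4 of the untreated cells without serine stood apart: it had the smallest total, detected 12900 genes where the rest detected 14000 to 16031, and gave 23.1% of its reads to 20 genes where the rest gave 12.3% to 17.3%. Xist was at 0 and Y-linked genes summed to 1184 to 2391 counts in the 4 libraries numbered 1. Elsewhere Xist reached 351 to 1477 counts and Y-linked genes at most 1, so replicate 1 and sex cannot be told apart. All 8 macrophage markers were detected in every group and summed to 16267 to 28263 CPM per library. CPM is the count divided by library size in units of 1e6 reads, after TMM scaling. Of 9 neutrophil markers, the summed level was 92.2 to 146 CPM in the 4 libraries numbered 1 and 10.8 to 34.7 CPM in the other 12, and Ly6g was at 0 in all groups except untreated cells with serine. Dendritic cell markers, 5 genes, summed to 8.38 to 15.2 CPM in LPS-treated and 1.11 to 2.53 CPM in untreated libraries, and stromal cell markers, 4 genes, to 14.2 to 44.4 CPM and 0 to 19.6 CPM. Their part in the LPS results below was not tested.

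The first question was how LPS moved these genes, with and without serine in the medium. Nos2, Gch1, Ass1 and Odc1 rose with LPS in both media, and Srm, which encodes spermidine synthase, fell in both. Sat1 and Sms rose with LPS in complete medium. Of the 10 genes, 9 passed the filter on low counts and were tested, and Arg1 did not pass it. In edgeR's quasi-likelihood test at an adjusted p under 0.05, 4 of the 9 were higher and 1 was lower with LPS in medium without serine, where 27.1% of the 11004 genes tested were higher and 29.7% lower, 56.8% in either direction. In complete medium 6 of the 9 were higher and 1 was lower, against 27.6% and 28.2% of all genes tested, 55.8% in either direction. The median log2 fold change of the 9 was 1.04 without serine and 1.17 with it, and that of all genes tested was -0.12 and -0.03. Scaling by total counts in place of TMM moved the median of all genes to -0.69 without serine and -0.64 with serine. With it the 9 split into 4 higher and 2 lower in each medium. In that setting 75% of all genes tested passed in either direction without serine and 73.4% with serine.

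**Figure D1:**
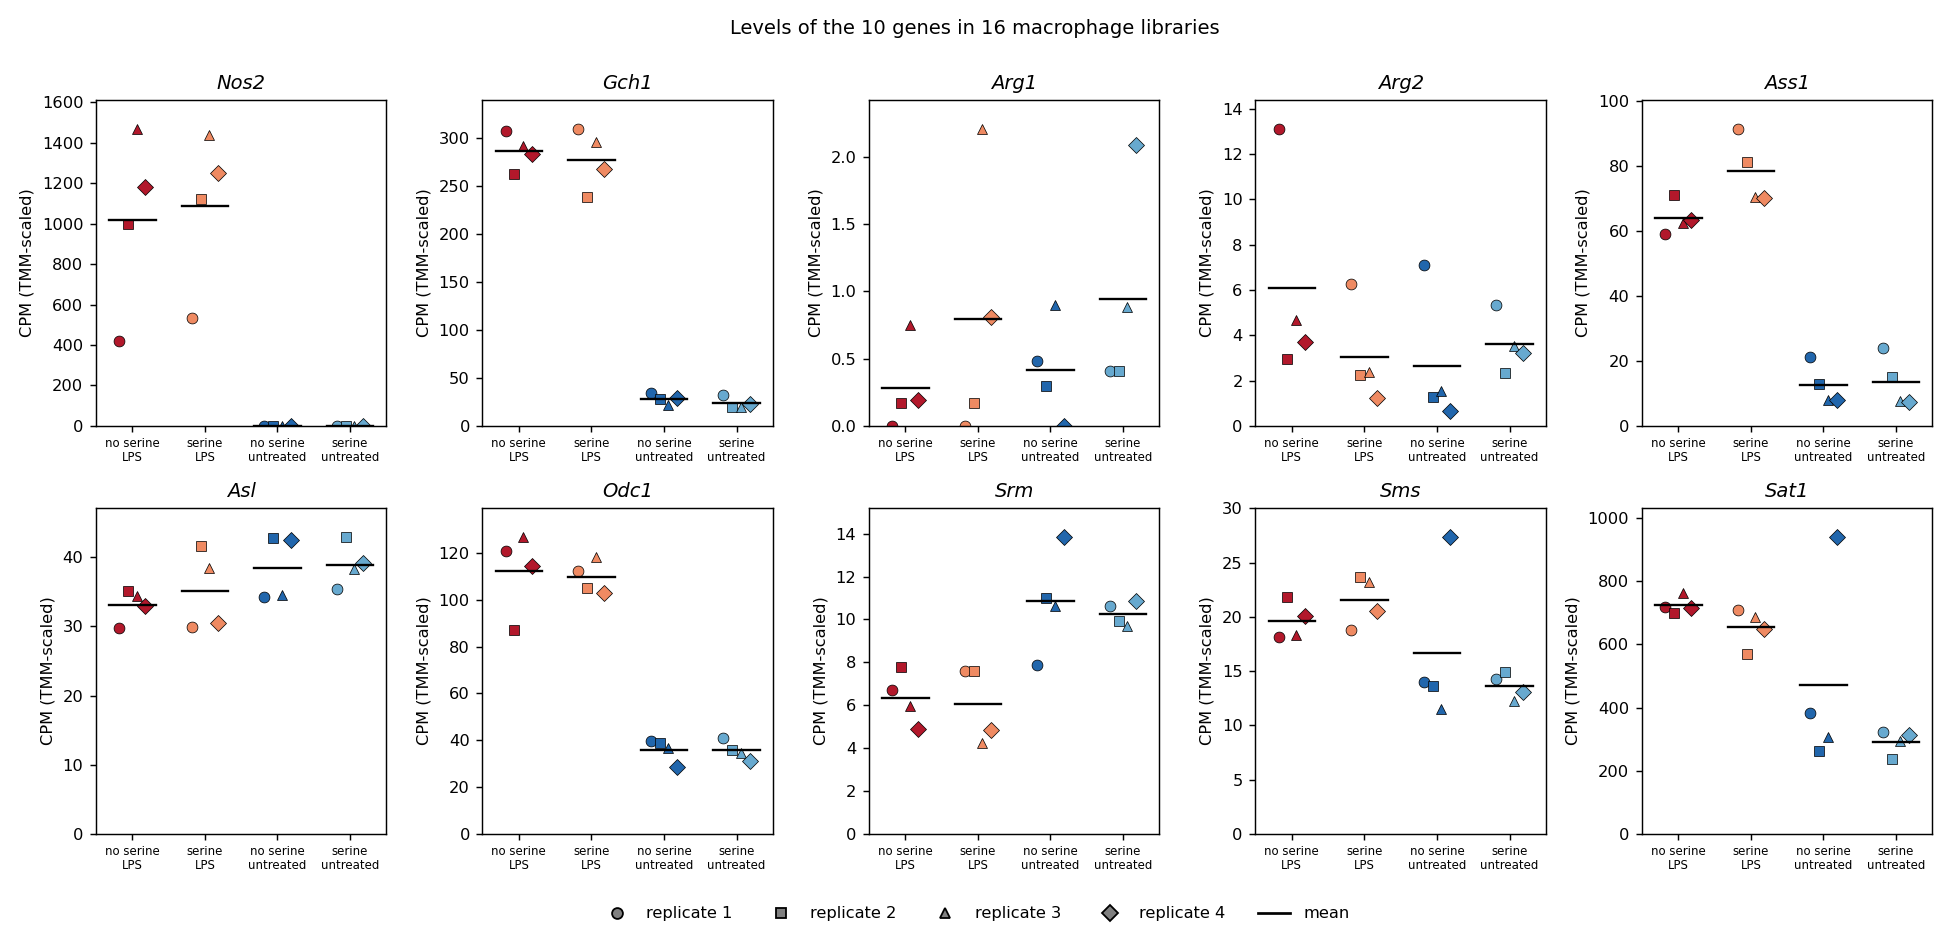
Level of each of the 10 genes in CPM (vertical axis, linear from 0, its own scale in each panel) in the 16 libraries, with 4 points per group, symbols for replicates 1 to 4 and a line at the group mean. Nos2 lies at 421 to 1466 CPM in LPS-treated cells without serine and at 531 to 1438 CPM in LPS-treated cells with serine, and at 0.139 CPM or less in untreated cells.

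Nos2 (chr11:78920787-78960254 in mm10, plus strand) had 421, 997, 1466 and 1183 CPM in replicates 1 to 4 of LPS-treated cells without serine. It had 531, 1123, 1438 and 1250.3 CPM in those of LPS-treated cells with serine. In untreated cells it had 0, 0, 0.128 and 0 CPM without serine and 0, 0, 0.126 and 0.139 CPM with serine. Every LPS-treated library was far above every untreated library, and replicate 1 was the lowest of each LPS group. The untreated groups held 1 and 2 counts of Nos2 without and with serine, so the ratio to them is poorly bounded. It was 32800 without serine (22425 counts with LPS, 95% interval 5890 to 1300000) and 18400 with serine (24762 counts with LPS, interval 5100 to 152000), where the intervals cover counting error only. The difference passed the test in both media (adjusted p = 5.41e-11 without and 4.03e-11 with serine, edgeR), and Nos2 was higher with LPS in 4 of 4 pairs of libraries of the same number in each medium.

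Gch1 (chr14:47153895-47189413, minus strand), which makes the first intermediate of the tetrahydrobiopterin cofactor, had 307, 262, 291 and 283 CPM in LPS-treated cells without serine and 309, 238, 295 and 268 CPM in LPS-treated cells with serine. Untreated cells had 34.3, 27.7, 21.3 and 29.0 CPM without serine and 31.7, 19.8, 19.5 and 22.4 CPM with serine. No untreated library reached the level of an LPS-treated one, and the LPS groups lay within a narrow band. LPS raised Gch1 10.2-fold without serine (log2 fold change 3.35 ± 0.18 (SE), adjusted p = 1.4e-10) and 11.9-fold with serine (3.57 ± 0.18, adjusted p = 6.06e-11), in 4 of 4 pairs in each medium. The stretch before its start is shown because Gch1 had the largest fold change with LPS among those of the 10 genes with an entry in the RefSeq promoter table (build GRCm38.p6). It lies at chr14:47189414-47189663 and is printed 5′ to 3′ along the minus strand. The capitals mark a TATA motif that reads TATAAA on the opposite strand (first base at position -188 from the RefSeq start), a CCAAT motif (-70) and GGGCGG motifs, known as GC boxes (-118 and -105).
Gch1: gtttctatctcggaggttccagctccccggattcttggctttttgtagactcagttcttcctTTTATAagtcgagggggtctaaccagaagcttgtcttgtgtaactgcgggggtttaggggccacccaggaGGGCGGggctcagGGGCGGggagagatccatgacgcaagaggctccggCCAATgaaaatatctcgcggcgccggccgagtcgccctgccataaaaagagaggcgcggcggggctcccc

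Promoter windows of 300 bases, 250 before the RefSeq start and 50 from it, matched 5 of the 10 genes (Gch1, Ass1, Odc1, Sat1 and Sms, the last with 2 windows), while Nos2, Arg1, Arg2, Asl and Srm had none. Each window was searched on both strands for 8 motifs. TATAAA was in 13.6% of the 32851 windows of the table, CCAAT in 37.4% and GGGCGG in 35.7%. The kappaB motif of the inflammatory factor NF-kappaB was in 1.63%, the interferon-stimulated response element in 3.44%, CACGTG, an E-box that MYC and related factors bind, in 7.15%, TGACGTCA, for CREB, in 1.79%, and TGATGNAAT, for C/EBP-ATF pairs, in 0.965%. None of the 6 windows held the letters searched for NF-kappaB, interferon regulatory factors, CREB or C/EBP-ATF, which says only that these letters are not in those windows. Ass1 held a CACGTG at position -36 and a GGGCGG at -63. Of the Sms windows, 1 held a CACGTG at -196 and a CCAAT at -231. The other held GC boxes at -176, -172 and -168, of which neighbours overlapped, and a separate one at -128.

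Ass1 and Asl act in sequence to rebuild arginine from the citrulline that nitric oxide synthase releases, and they behaved differently under LPS. Ass1 (chr2:31470207-31520672, plus strand) had 58.9, 70.9, 62.4 and 63.3 CPM in LPS-treated cells without serine and 91.2, 81.3, 70.5 and 70.2 CPM in LPS-treated cells with serine. It had 21.04, 12.9, 7.95 and 8.09 CPM in untreated cells without serine and 23.8, 14.9, 7.54 and 7.24 CPM in untreated cells with serine. LPS-treated and untreated libraries did not overlap, and replicate 1 was the highest library of each untreated group. LPS raised Ass1 4.92-fold without serine (log2 2.30 ± 0.34, adjusted p = 2.34e-05) and 5.78-fold with serine (2.53 ± 0.34, adjusted p = 7.16e-06). Asl (chr5:130011258-130025132, minus strand) ranged over 29.8 to 35.2 CPM in LPS-treated cells without serine, 29.9 to 41.6 CPM in LPS-treated cells with serine, 34.3 to 42.7 CPM in untreated cells without serine and 35.4 to 42.9 CPM in untreated cells with serine. These ranges overlapped, and the log2 difference with LPS was -0.21 (95% interval -0.50 to 0.07, adjusted p = 0.169) without serine and -0.15 (-0.43 to 0.13, adjusted p = 0.351) with serine. Scaled by total counts Asl was lower with LPS in both media, by -0.78 (adjusted p = 9.99e-05) and -0.76 (adjusted p = 0.000115).

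Of the arginases, Arg2 did not pass with LPS in either medium without a replicate term, and Arg1 had too few counts to be tested. Arg1 (chr10:24915208-24927470, minus strand), the cytosolic arginase, had 0, 1, 4 and 1 counts in LPS-treated cells without serine, 0, 1, 13 and 4 counts in LPS-treated cells with serine, 6, 3, 7 and 0 counts in untreated cells without serine and 4, 4, 7 and 15 counts in untreated cells with serine. At 70 counts in 16 libraries, every group overlapped every other, and no difference with LPS could be detected at this depth: the ratio of LPS-treated to untreated cells was 0.549 without serine (95% counting interval 0.176 to 1.48) and 0.893 with serine (0.469 to 1.66). Other genes that mark interleukin-4-treated macrophages were set beside it. Retnla had no count in any library, Mrc1, a mannose receptor, ranged over 125 to 372 CPM, and Il4ra, a chain of the interleukin-4 receptor, rose with LPS by a log2 of 0.82 ± 0.17 without serine (adjusted p = 0.000739) and 1.001 ± 0.17 with serine (adjusted p = 0.000114). Mrc1 did not pass in any comparison without a replicate term, and passed with a term for the replicate number in the LPS comparison without serine (log2 0.44 ± 0.15, adjusted p = 0.0215). Chil3 did not pass in any comparison and had 22.5, 27.5, 32.5 and 29.9 CPM in the libraries numbered 1, above the other 3 libraries of each group.

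Arg2 (chr12:79130777-79156301, plus strand), the mitochondrial arginase, was low and varied with the replicate number. It had 13.1, 2.95, 4.67 and 3.70 CPM in LPS-treated cells without serine and 6.25, 2.24, 2.37 and 1.21 CPM in LPS-treated cells with serine. It had 7.09, 1.29, 1.54 and 0.675 CPM in untreated cells without serine and 5.35, 2.35, 3.52 and 3.20 CPM in untreated cells with serine. Replicate 1 was the highest library of every group, as were the summed neutrophil markers given above, and their part in the Arg2 level was not tested. Without serine the log2 change with LPS was 1.04 ± 0.61 (adjusted p = 0.159), and LPS-treated and untreated libraries overlapped. Within pairs of the same number Arg2 was higher with LPS in 4 of 4, by 0.859, 1.043, 1.445 and 2.061, and with a term for the replicate number the change was 1.18 ± 0.29 and passed (adjusted p = 0.00318). Without the 4 libraries numbered 1 it was 1.53 and passed (adjusted p = 0.0036), and leaving out only replicate 1 of the untreated, serine-free cells it was 2.28 and also passed. Leaving out only replicate 1 of the LPS-treated, serine-free cells gave 0.319, which did not pass. With serine the change was -0.22 ± 0.64 (adjusted p = 0.797), and Arg2 was higher in 1 of 4 pairs. Arg2 shares 285 exon bases with Vti1b on the other strand, the kit does not mark strand, and Vti1b did not pass in any comparison.

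**Figure D2:**
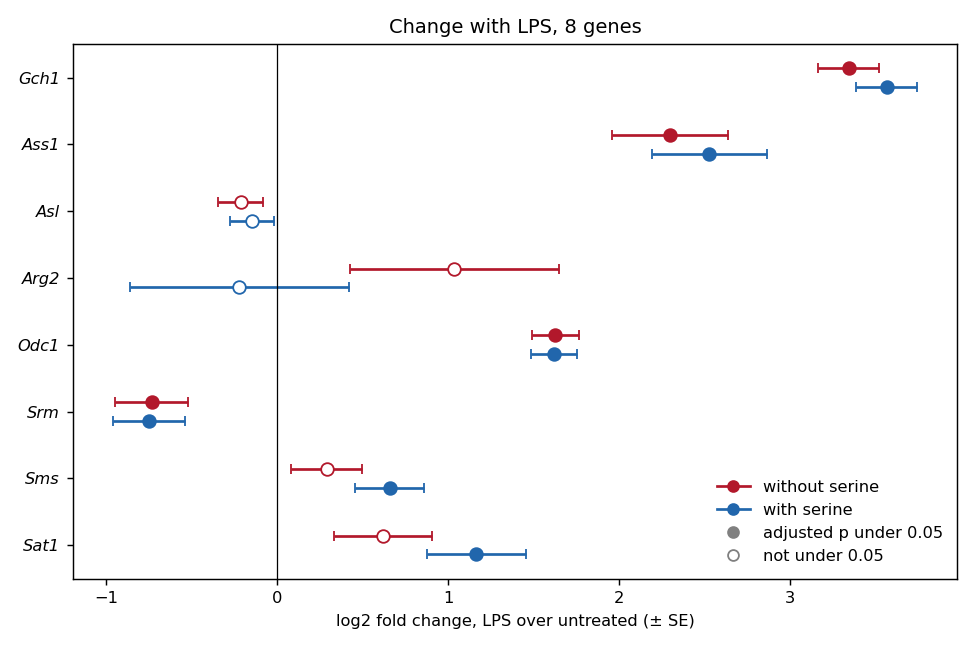
Log2 fold change with LPS (horizontal axis, LPS-treated over untreated, bars ± SE from edgeR) of 8 of the genes, in red without serine and in blue with serine, with filled points for an adjusted p under 0.05. Gch1, Ass1 and Odc1 lie to the right of 0 and Srm to the left in both media, and the bar of Arg2 is the widest. Nos2 is not drawn because its untreated groups held 3 counts or fewer.

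Among the polyamine genes, the enzyme at the entry and the enzyme that starts breakdown rose with LPS in complete medium, while the middle steps moved less or down. Odc1 (chr12:17544873-17551502, plus strand), the rate-limiting enzyme of polyamine synthesis, had 121, 87.0, 127 and 115 CPM in LPS-treated cells without serine and 112, 105, 118 and 103 CPM in LPS-treated cells with serine. It had 39.8, 38.8, 36.8 and 28.7 CPM in untreated cells without serine and 40.9, 35.9, 34.6 and 31.0 CPM in untreated cells with serine. The LPS-treated and untreated libraries were well apart and the media overlapped. By TMM scaling LPS raised Odc1 3.09-fold without serine (log2 1.63 ± 0.14, adjusted p = 3.43e-08) and 3.08-fold with serine (1.62 ± 0.14, adjusted p = 3.18e-08), in 4 of 4 pairs in each medium, and with total counts the log2 change was 1.044 and 1.003 and still passed. Its upstream stretch at chr12:17544623-17544793 on the plus strand is shown for its GC boxes, in capitals, at positions -238, -116 and -88 from the RefSeq start, and another at -15 lies past the printed stretch. MYC, which is known to drive Odc1, binds E-boxes. The letters CACGTG were not in the window searched, which says only that, and a part of MYC in the Odc1 level was not tested.
Odc1: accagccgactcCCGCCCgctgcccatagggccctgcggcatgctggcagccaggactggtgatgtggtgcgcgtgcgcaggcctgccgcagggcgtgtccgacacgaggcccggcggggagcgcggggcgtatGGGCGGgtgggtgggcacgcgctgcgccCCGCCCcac

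Srm (chr4:148591503-148594993, plus strand), which adds an aminopropyl group to putrescine to make spermidine, had 6.70, 7.80, 5.98 and 4.87 CPM in LPS-treated cells without serine and 7.59, 7.60, 4.23 and 4.84 CPM in LPS-treated cells with serine. Untreated cells had 7.89, 10.98, 10.6 and 13.8 CPM without serine and 10.6, 9.93, 9.68 and 10.9 CPM with serine. Every LPS-treated library was below every untreated one, with 7.80 CPM as the highest LPS-treated and 7.89 CPM as the lowest untreated value. Srm fell by 0.74 ± 0.21 on the log2 scale without serine (adjusted p = 0.00797) and by 0.75 ± 0.21 with serine (adjusted p = 0.00654), and with total counts the change was -1.30 and -1.36. Sms (chrX:157443855-157492287, minus strand), which makes spermine from spermidine, had 18.1, 21.8, 18.3 and 20.1 CPM in LPS-treated cells without serine and 18.8, 23.7, 23.2 and 20.6 CPM in LPS-treated cells with serine. It had 14.03, 13.7, 11.5 and 27.3 CPM in untreated cells without serine, where replicate 4 is the library of low depth, and 14.2, 14.9, 12.2 and 13.1 CPM in untreated cells with serine. With serine Sms rose by a log2 of 0.66 ± 0.20 (adjusted p = 0.0111) with no overlap of the groups, but scaled by total counts the change was 0.042 (adjusted p = 0.834). Without serine the change was 0.29 ± 0.21 (adjusted p = 0.241) and reached 0.58 (adjusted p = 0.000566) once the library of low depth was left out, and -0.26 when scaled by total counts. A pseudogene copy, Sms-ps, held 50 counts over the 16 libraries, and how many Sms reads matched both was not tested.

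Sat1 (chrX:155213132-155216449, minus strand), spermidine/spermine acetyltransferase, which marks polyamines for breakdown and export, had 720.0, 700.3, 762 and 716 CPM in LPS-treated cells without serine and 709, 570.4, 688 and 648 CPM in LPS-treated cells with serine. It had 383, 262, 306 and 939 CPM in untreated cells without serine and 323, 237, 294 and 312 CPM in untreated cells with serine. The highest of all 16 values was that of the library of low depth, and the other 7 untreated libraries lay below all LPS-treated ones. With serine Sat1 rose 2.24-fold (log2 1.17 ± 0.29, adjusted p = 0.00261), in 4 of 4 pairs, and scaled by total counts the log2 change was 0.55 (adjusted p = 0.0523). Without serine the log2 change was 0.62 ± 0.29 (adjusted p = 0.0757). It passed with a term for the replicate number (0.75 ± 0.26, adjusted p = 0.023) and without the library of low depth (1.19, adjusted p = 5.55e-07). The stretch before its start, at chrX:155216450-155216699 on the minus strand, is shown because Sat1 had the highest level per length of the 10 genes in untreated cells, with its GC boxes at positions -72 and -6 in capitals.
Sat1: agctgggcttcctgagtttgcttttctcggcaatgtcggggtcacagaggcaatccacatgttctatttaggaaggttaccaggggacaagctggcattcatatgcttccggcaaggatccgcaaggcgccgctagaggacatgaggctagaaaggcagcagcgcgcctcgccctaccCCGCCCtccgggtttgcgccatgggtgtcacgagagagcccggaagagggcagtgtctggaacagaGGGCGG

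The second question was whether removing serine moved the same genes, first in LPS-treated cells. None of the 9 genes tested passed in edgeR's test, in which 7 of 11004 genes, 0.0636%, were called, 0.0545% higher and 0.00909% lower. None of these 9 had an unadjusted p under 0.05, where 676 of all 11004 genes did. DESeq2 called 0 of the 9 genes and 0.854% of all genes. The interval of the log2 difference was -0.80 to 0.61 for Nos2 (difference -0.09 ± 0.33) and -0.30 to 0.39 for Gch1 (0.04 ± 0.16). For Odc1 it was -0.26 to 0.32 (0.03 ± 0.13). These intervals, from the fit without a replicate term, leave room for changes of some size in either direction, wider for Nos2 than for Gch1 or Odc1. The adjusted p was 1 for all 9 in that fit. With a term for the replicate number the differences were -0.14 ± 0.13 for Nos2, 0.05 ± 0.12 for Gch1 and 0.03 ± 0.12 for Odc1. None of these passed either. Over the 4 pairs of libraries of the same number, Nos2 was higher without serine in 1 and Gch1 in 2.

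Arg2, Ass1, Sms and Sat1 differed in the same direction in 4 of 4 pairs under LPS, without passing. Arg2 was higher without serine in each, by a log2 CPM of 1.034, 0.354, 0.901 and 1.419, and its fitted difference was 0.99 ± 0.63 (95% interval -0.38 to 2.37). With a term for the replicate number it was 0.98 ± 0.30 (adjusted p = 0.227), and with that term and without the library of low depth it was 0.99 and passed (adjusted p = 0.0249), as did 8.3% of all genes in that fit. Without a replicate term, leaving out 1 library moved it between 0.269, without replicate 1 of the LPS-treated, serine-free cells, and 1.649, without replicate 1 of the LPS-treated cells in complete medium, and neither passed. Ass1 was lower without serine, with log2 differences of -0.629, -0.197, -0.174 and -0.147 in replicates 1 to 4, with a fitted difference of -0.29 ± 0.31 (-0.98 to 0.39). Sms was lower in each pair, with a fitted difference of -0.14 ± 0.20, and Sat1 higher in each, with 0.15 ± 0.29. Arg1 had 6 counts without and 18 with serine under LPS, a ratio of 0.341 (95% counting interval 0.111 to 0.898), of which 13 counts came from replicate 3 with serine.

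**Figure D3:**
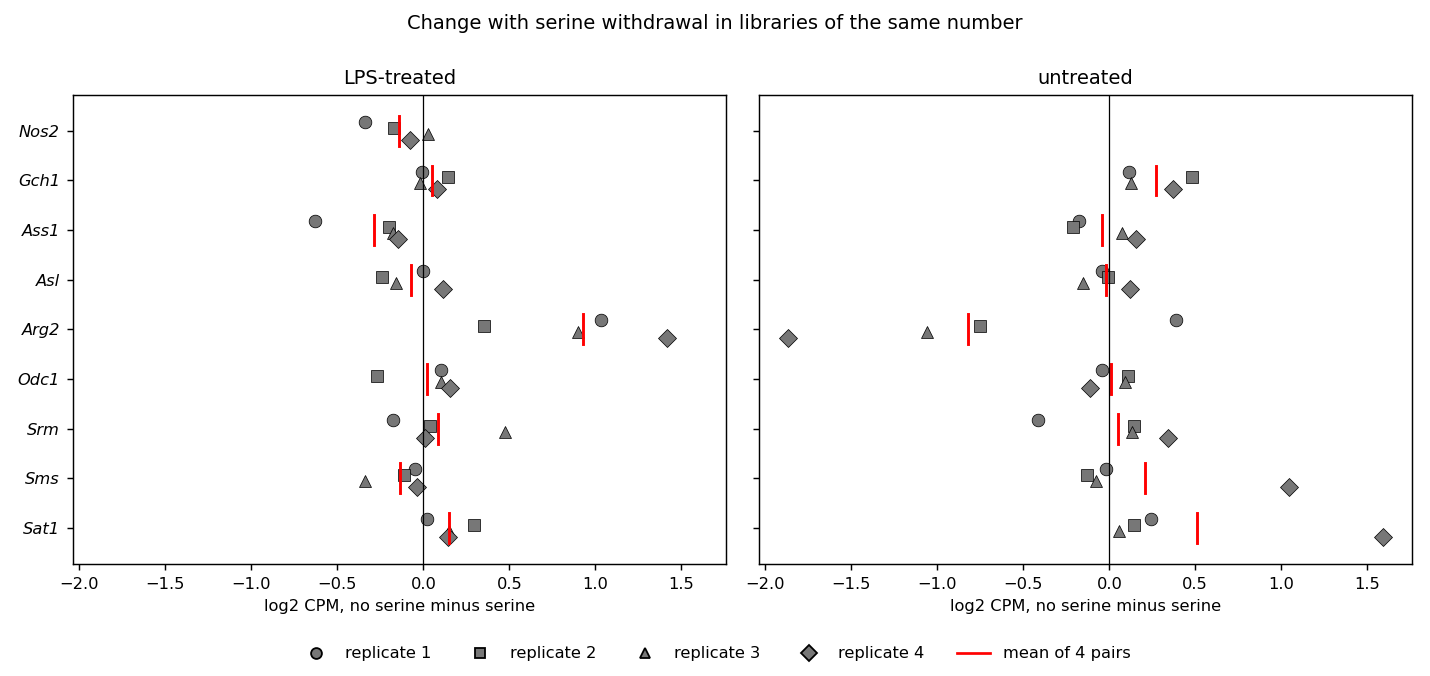
Difference in log2 CPM between libraries of the same number, cells without serine minus cells with serine (horizontal axis), for 9 genes, with LPS on the left and untreated on the right, one symbol per replicate number and a red bar at the mean of 4 pairs. Arg2 lies right of 0 in 4 of 4 pairs with LPS and in 1 of 4 untreated, and the pair of replicate 4, which holds the library of low depth, lies far right for Sat1 and Sms in untreated cells. Nos2 is drawn with LPS only.

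In untreated cells, serine withdrawal also left 0 of the 9 genes past the threshold, in a comparison with 0 of 11004 genes called (0%) and 548 genes at an unadjusted p under 0.05. DESeq2 called 0 of the 9 and 0.118% of all genes. Sat1 had an unadjusted p of 0.0284, with a log2 difference of 0.69 ± 0.29 (adjusted p = 0.816) that came to 0.12 (adjusted p = 1) without the library of low depth. Sms had 0.23 ± 0.21, and -0.058 without that library. Gch1 was higher without serine in 4 of 4 pairs, with a fitted difference of 0.27 ± 0.17 (95% interval -0.10 to 0.63, adjusted p = 0.816). Arg2 was lower without serine in 3 of 4 pairs, with log2 differences of 0.388, -0.751, -1.063 and -1.867 in replicates 1 to 4, and its difference was -0.26 ± 0.62 (adjusted p = 0.933). Odc1, Srm, Asl and Ass1 had differences of 0.03 ± 0.14, 0.05 ± 0.20, -0.02 ± 0.13 and -0.06 ± 0.34.

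The difference between the withdrawals, which is also the difference between the LPS changes with and without serine, was tested itself, and 0 of the 9 genes passed, against 0 of 11004 genes (0%) and 253 at an unadjusted p under 0.05. None of the 9 had an unadjusted p under 0.05, and DESeq2 called 0 of them and 0.00909% of all genes. The values of largest size were 1.26 ± 0.88 for Arg2 (95% interval -0.67 to 3.18, adjusted p = 0.95) and -0.54 ± 0.41 for Sat1 (-1.43 to 0.34). For Sat1 it was 0.028 without the library of low depth. With a term for the replicate number Arg2 had 1.53 ± 0.42 (adjusted p = 0.828). The 2 LPS comparisons share no library, and each shares libraries with both withdrawals. So passing with LPS in complete medium, as Sat1 and Sms did, and not in medium without serine was not shown to be a difference between the media.

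Among the carriers of arginine and other amino acids, Slc7a2, Slc7a1, Slc7a7 and Slc3a2 rose with LPS in both media, and Slc7a6, named here after its values were seen, fell in both, by 0.72 ± 0.25 without serine (adjusted p = 0.0207) and by 0.99 ± 0.25 with serine (adjusted p = 0.00268). Of 18 genes of arginine transport and side routes, 13 were tested, and with LPS 6 were higher and 3 lower without serine, and 5 were higher and 3 lower with serine. Their median log2 change was -0.09 and 0.11. Among all genes tested, 27.1% were higher and 29.7% lower without serine, and 27.6% and 28.2% with serine. Slc7a2, the arginine carrier CAT2 that activated macrophages use, had 551, 718, 800.3 and 769 CPM in LPS-treated cells without serine and 643, 815, 928 and 927 CPM in LPS-treated cells with serine, against 14.3, 15.3, 22.4 and 9.44 CPM in untreated cells without serine and 10.0, 14.03, 20.2 and 18.4 CPM in untreated cells with serine. It rose 45.2-fold with LPS without serine (log2 5.50 ± 0.27, adjusted p = 7.35e-11) and 53.1-fold with serine (5.73 ± 0.28, adjusted p = 4.27e-11), and no LPS-treated library came near an untreated one. Slc7a7, a light chain of a carrier that exchanges arginine for neutral amino acids, rose by 1.96 ± 0.19 without serine (adjusted p = 2.11e-07) and 1.65 ± 0.19 with serine (adjusted p = 1.24e-06), and its heavy chain Slc3a2 by 1.01 ± 0.13 and 1.06 ± 0.13, or 0.451 and 0.446 with total counts, which also passed. Pycrl, an enzyme of the proline route, fell by 1.43 ± 0.25 without serine (adjusted p = 0.000126). Pycrl also fell with serine, with a log2 change of -1.13 ± 0.24 in the fit with a term for the replicate number (adjusted p = 0.00119). The count of genes lower with serine was 3 of the 13 with and without that term.

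Slc7a1, the carrier CAT1 that takes up arginine in most cells, was higher both with LPS and without serine. It had 352, 249, 183 and 232 CPM in LPS-treated cells without serine and 174, 118, 73.8 and 88.1 CPM in LPS-treated cells with serine. It had 81.0, 99.1, 44.6 and 33.7 CPM in untreated cells without serine and 30.6, 35.9, 18.6 and 18.5 CPM in untreated cells with serine. In every pair of the same number the library without serine was higher. LPS raised it by 1.96 ± 0.35 without serine (adjusted p = 0.000148) and 2.13 ± 0.35 with serine (adjusted p = 7.66e-05). Withdrawal gave 1.16 ± 0.34 with LPS (adjusted p = 0.302) and 1.33 ± 0.35 in untreated cells (adjusted p = 0.816), which did not pass, and with a term for the replicate number 1.21 ± 0.18 (adjusted p = 0.00687) and 1.29 ± 0.19 (adjusted p = 0.0151), which did. With that term 4 of the 13 genes passed in the withdrawal with LPS, where 0.891% of all genes did, against 0 of the 13 without it. In untreated cells 1 of the 13 passed with the term, where 0.0818% of all genes did, against 0 without it. The other 3 with LPS, singled out after their values were seen, were Slc7a5 and Slc3a2, the chains of a large neutral amino acid carrier (1.26 ± 0.24, adjusted p = 0.0275, and 0.42 ± 0.09, adjusted p = 0.0436), and Aldh18a1, which makes the precursor of proline and ornithine from glutamate (1.36 ± 0.24, adjusted p = 0.02). In untreated cells these 3 genes had 1.55 ± 0.40, 0.47 ± 0.13 and 0.96 ± 0.40 without that term (adjusted p = 0.816 each). The authors' deposited edgeR table of the withdrawal with LPS marked Slc7a1, Slc7a5 and Aldh18a1 as higher (adjusted p = 0.000611, 2.76e-05 and 0.00369). Slc3a2 was not marked there (adjusted p = 0.0791), and none of these 4 genes was marked in the authors' table of untreated withdrawal. Slc7a2 had a difference of -0.22 ± 0.22 with LPS and 0.01 ± 0.24 in untreated cells.

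**Figure D4:**
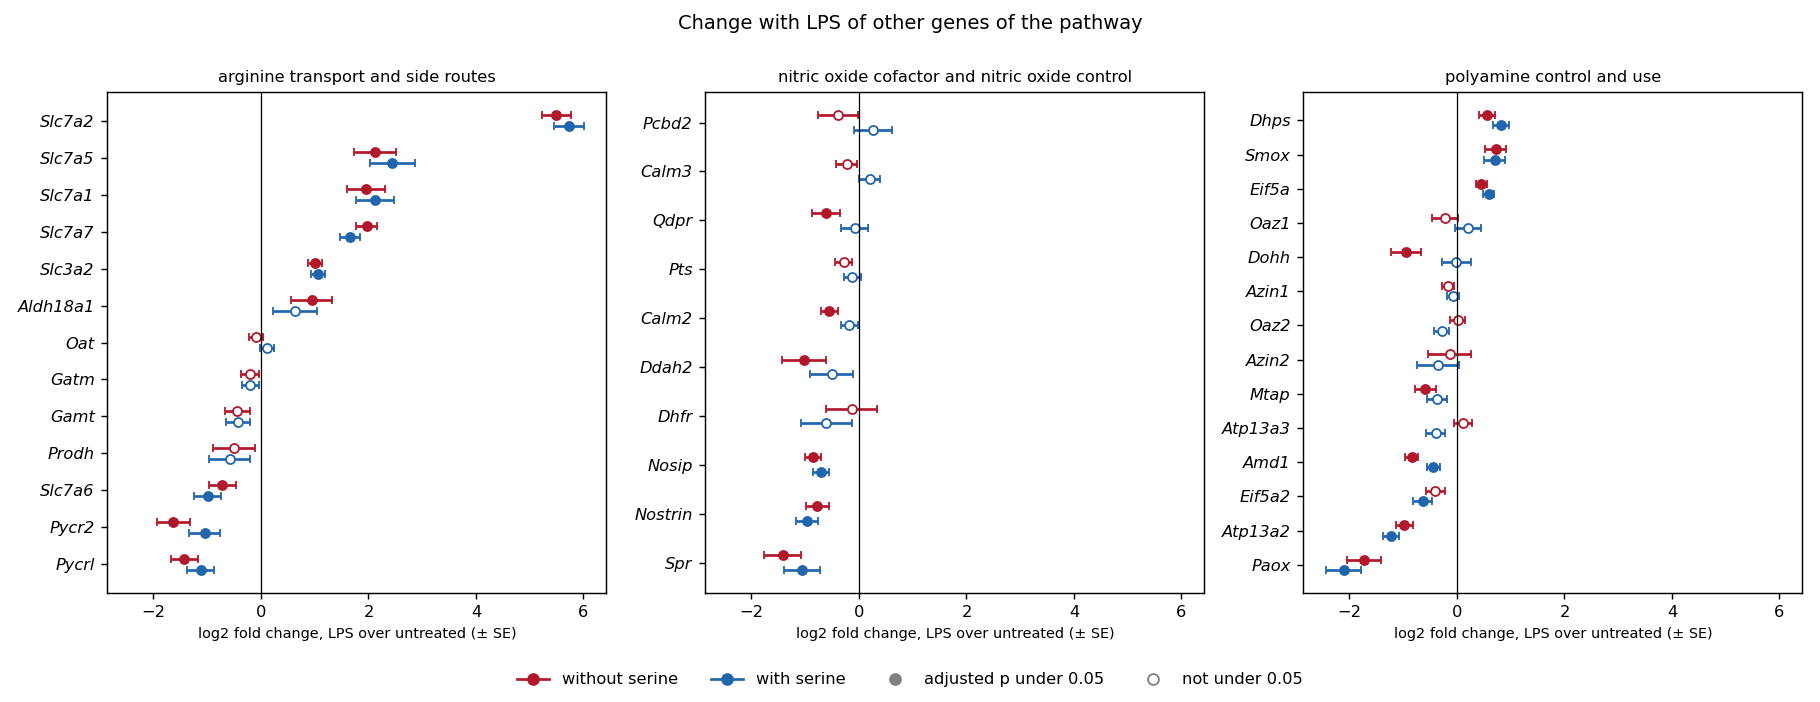
Log2 fold change with LPS (horizontal axis, LPS-treated over untreated, bars ± SE from edgeR) of tested genes of 3 lists around the 10 genes, in red without serine and in blue with serine, with filled points for an adjusted p under 0.05. Slc7a2 lies far to the right at 5.50 without serine and 5.73 with serine, and Paox is the lowest of the polyamine list at -1.73 and -2.11.

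Of 16 genes of the nitric oxide cofactor and of nitric oxide control, 11 were tested, and with LPS 1 was higher and 6 were lower without serine, and 1 was higher and 3 were lower with serine, with medians of -0.55 and -0.18. Of all genes tested 27.1% were higher and 29.7% lower without serine, and 27.6% and 28.2% with serine. Neither step of tetrahydrobiopterin synthesis after Gch1 passed as higher. Pts, the second step, had log2 changes of -0.28 ± 0.16 (adjusted p = 0.136) without and -0.12 ± 0.16 (adjusted p = 0.531) with serine, and Spr, sepiapterin reductase, the last step, fell by 1.42 ± 0.34 (adjusted p = 0.00208) and 1.05 ± 0.34 (adjusted p = 0.0134). With 1 library left out at a time, the change of Spr without serine ranged from -1.614 to -0.856 and passed each time. Spr had 54.3 CPM in the library of low depth and 15.1 to 24.3 CPM in the other 7 untreated libraries. Qdpr had 131 CPM in that library and 46.6 to 58.4 CPM in the other 7. Ddah2, named after its values were seen, had 12.8 CPM there and 3.19 to 4.90 CPM in the other 7. How far that library set the count of genes lower without serine, or their median, was not tested. Gchfr, which encodes a feedback regulator of GTP cyclohydrolase, held 3, 2, 0 and 2 counts in LPS-treated cells without and with serine and untreated cells without and with serine, and was not tested. Nosip and Nostrin, whose products bind and relocate the endothelial synthase, fell by 0.86 ± 0.15 and 0.78 ± 0.21 without serine and by 0.71 ± 0.15 and 0.97 ± 0.21 with serine. Qdpr, which recycles the cofactor and is named here after its values were seen, passed without serine (adjusted p = 0.0485) but not with a term for the replicate number (-0.54 ± 0.22, adjusted p = 0.0518). None of the 11 passed in either withdrawal, in which 0 had an unadjusted p under 0.05.

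Of 17 genes of polyamine control and use, 14 were tested, and with LPS 3 were higher and 5 were lower without serine, and 3 were higher and 4 lower with serine, with medians of -0.20 and -0.32. The shares of all genes tested were 27.1% higher and 29.7% lower without serine, and 27.6% and 28.2% with serine. Amd1, which supplies the aminopropyl donor for Srm and Sms, fell by 0.85 ± 0.13 without serine (adjusted p = 2.81e-05) and by 0.44 ± 0.12 with serine (adjusted p = 0.00641). Paox, an oxidase of acetylated polyamines, fell by 1.73 ± 0.31 (adjusted p = 0.000178) and by 2.11 ± 0.33 (adjusted p = 3.99e-05), and Atp13a2, a polyamine transporter of the lysosome, fell by 0.98 ± 0.15 and by 1.23 ± 0.15. Smox, spermine oxidase, rose by 0.72 ± 0.20 (adjusted p = 0.00495) and 0.70 ± 0.19 (adjusted p = 0.00547), but had 0.155 and 0.088 when scaled by total counts and did not pass. Dhps, which uses spermidine to modify the translation factor eIF5A, rose by 0.82 ± 0.15 with serine (adjusted p = 0.00014), but by 0.202 with total counts, which did not pass. Dhps also rose without serine, by 0.57 ± 0.13 in the fit with a term for the replicate number (adjusted p = 0.00248). The term did not change the count of genes higher without serine, which was 3 of the 14 in both fits. Eif5a itself rose by 0.45 ± 0.10 without and 0.59 ± 0.10 with serine, but had -0.11 and -0.03 when scaled by total counts. Azin1 and Oaz1, an inhibitor of antizyme and antizyme itself, which sends ornithine decarboxylase to degradation, had -0.17 ± 0.11 and -0.22 ± 0.24 without serine and -0.07 ± 0.11 and 0.21 ± 0.24 with serine, and neither passed. Oaz1 has a pseudogene copy with 382 counts. None of the 14 passed in either withdrawal (edgeR, with and without a replicate term), and at an unadjusted p under 0.05 there was 1 gene in each, Atp13a3 with LPS, named after its values were seen, and Azin1 in untreated cells.

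Levels of different genes were compared per kilobase. The deposited lengths exceed the span of the gene for 1982 genes, Sat1 among them (7255 bases against a span of 3318), so lengths of merged exons from GENCODE M21 were used beside them. On either length Sat1, Nos2 and Gch1 were the first 3 of the 10 in LPS-treated cells. With merged exons LPS-treated cells without serine had 261 ± 9.57 CPM per kilobase of Sat1, 230.4 ± 100.1 of Nos2 and 45.8 ± 2.99 of Gch1 (SD, n = 4), and LPS-treated cells with serine had 236 ± 22.0, 246 ± 88.7 and 44.4 ± 5.02. Nos2 and Sat1 overlapped in their ranges over 4 libraries, and both were above Gch1. Odc1 and Ass1 followed at 33.0 ± 5.15 and 26.5 ± 2.09 without serine and at 32.2 ± 2.06 and 32.4 ± 4.17 with serine, and overlapped each other. Asl, Srm, Sms and Arg2 lay between 2.11 and 7.27, with Arg2 overlapping Srm and Sms in both media, and Arg1 was last at 0.125 ± 0.146 and 0.357 ± 0.449. In untreated cells Sat1 was first, at 170.3 ± 114 without serine and 105 ± 13.8 with serine, and above all others. Odc1 came next at 10.6 ± 1.48 and 10.5 ± 1.20, overlapping Asl, Srm and Ass1 without serine and Ass1 with serine, and Arg1 and Nos2 were the last 2 in both media. With the deposited lengths Gch1 stood ahead of Sat1 in LPS-treated cells, at 103 ± 6.74 against 99.9 ± 3.66 without serine, with ranges that overlapped.

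**Figure D5:**
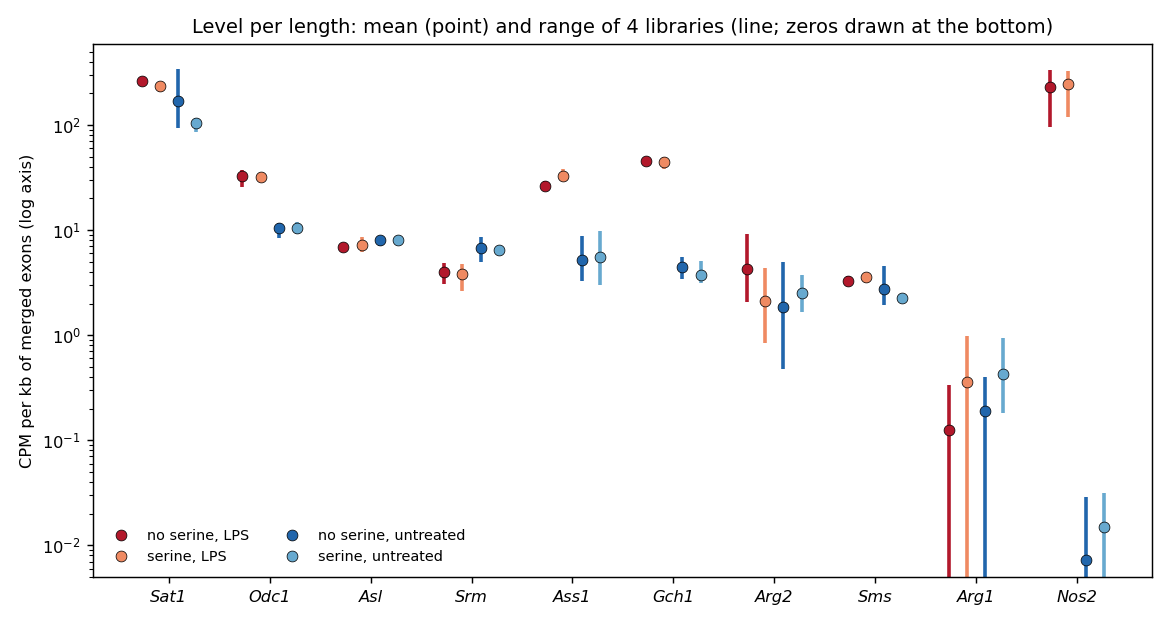
Level per length (vertical axis, CPM per kilobase of merged exons, log axis) of the 10 genes in the 4 groups, with a point at the mean and a line over the range of 4 libraries, and zeros drawn at the bottom edge. Sat1 is high in every group, and Nos2 is among the highest with LPS and the lowest without it.

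The genes most like Nos2 over the 16 libraries, by Pearson correlation of log2 CPM among 11003 other tested genes, were Lhx2 (0.998), Mapkapk2 (0.998) and Ythdf1 (0.997). For Gch1 they were Nfkbiz, Clec4e and Casp4 (0.998 each) and for Odc1 they included Bend7 (0.993) and Ppm1b (0.991). These are descriptions: the 16 libraries fall into LPS-treated and untreated clusters, and the correlations follow that split. In the authors' deposited table of LPS against untreated cells without serine, 4 of the 9 genes listed were marked higher and 0 lower, and in the authors' deposited table of the same comparison with serine 6 of the 10 listed were marked higher and 1 lower. The share of all genes marked by the authors was not counted, so these counts have no background beside them. In the main fit here 56.8% of all genes tested passed without serine and 55.8% with serine. Srm was the gene marked lower with serine only, with a log2 change of -0.73 and an adjusted p of 0.0256 without serine in the authors' deposited table. That value is under 0.05, so the authors' marks did not follow the threshold used here. The missing mark does not show a difference between the media. None of the 9 listed was marked in the authors' deposited tables of either withdrawal.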

How the data were processed

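Per the labels, libraries were made with a NEBNext Ultra RNA kit, which does not mark strand, and sequenced on a NextSeq at 75 bases. The submitters' processing notes name Trimmomatic 0.33, STAR, SAMtools, HTSeq, edgeR and mm10, with no roles or order. The authors deposited raw counts per gene, FPKM values (each equal to count per length and total), and tables of log2 fold changes with adjusted p-values, which were used only where named. Of the table's columns, 24 could not be tied to a sample and were not used. Symbols were found for 42462 of 43430 genes. The 10 genes and the lists around them were chosen with earlier results of these data known.

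Counts were fitted with edgeR 4.0.16 (R 4.3.3, robust quasi-likelihood, TMM scaling, filterByExpr with a minimum count of 10), with 4 group means over 16 libraries, 11004 genes and Benjamini-Hochberg adjustment per comparison at 0.05. The biological coefficient of variation was 20.9%. Fold changes are LPS-treated over untreated, or without over with serine. Log2 CPM for paired differences and likeness used a prior count of 2. The fit was tested on simulated data. Genes named beside the 10 were a fixed few of each list plus up to 4 of each list per comparison with the smallest p among those past the threshold; others are marked where named, and a few results are not reported here. Libraries of the same number deviated together: the correlation of their deviations from group means was 0.125 to 0.66, against -0.373 to 0.141 for other numbers, and above 0.1 in every pair. A fit with the replicate number as a term (a replicate block) was therefore set beside the main one where it changed a call and for some other results. DESeq2 1.42.0, other scaling, no filter, leaving out each library, the 4 libraries numbered 1 or the library of low depth, and fits to the compared groups alone were the alternatives. Total counts of 2871477 to 10043362 per library set the precision, and count intervals cover counting error only. Further marker lists were low: T and NK cell genes (5) summed to 2.70 to 11.1 CPM with Cd3e and Cd3d at 0, B cell genes (4) to at most 0.863 CPM with Pax5 at 0, mast cell and basophil genes (4) to at most 0.398 CPM and erythroid genes (3) to at most 0.128 CPM.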

Additional observations from a re-analysis of the deposited data

Results flagged for a closer look

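In 40 checks of 4 libraries each, of which chance flags about 1 in 20, 4 values lay far from the rest of their group. Nos2 in replicate 3 of untreated cells without serine had 0.128 CPM, a single count, where the other 3 libraries had 0. Arg2 had 13.1 CPM in replicate 1 of LPS-treated cells without serine, with the nearest at 4.67 CPM, and 7.09 CPM in replicate 1 of untreated cells without serine, with the nearest at 1.54 CPM. Sms had 27.3 CPM in replicate 4 of untreated cells without serine, the library of low depth.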

How the results depend on the processing

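Of 2736 values recomputed under the alternatives, 2569 kept their direction and side of the threshold or moved little, 91 changed sign, 43 moved, 27 came to pass the threshold and 6 ceased to. The causes were not tested.

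With total counts, the LPS change with serine was -0.41 for Oaz1 and -0.029 for Eif5a, and without serine -0.257 for Sms and -0.106 for Eif5a. Without a filter Azin1 had 0.007 with serine. In untreated withdrawal, total counts gave -0.027 for Odc1, -0.021 for Srm and -0.033 for Slc7a2, and no filter gave -0.007 for Slc7a2. For the difference between the withdrawals DESeq2 gave -0.001 for Odc1.

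Genes called in the withdrawal with LPS, 7 in edgeR's test, numbered 0 with total counts, 4 with no filter, 94 with DESeq2, 98 with the replicate block, 922 with the block and without the library of low depth, 0 without the 4 libraries numbered 1, 35 with the compared groups alone, and 0 to 156 when 1 library was left out, 156 without the library of low depth. In untreated withdrawal, 0 in the main test, they numbered 2 with no filter, 13 with DESeq2, 9 with the replicate block and 79 with the block and without the library of low depth. For the difference they numbered 1 with DESeq2 and 8 with the block and without the library of low depth.

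The replicate block changed the calls of Arg2 (1.18) and Sat1 (0.75) with LPS without serine and no other call of the 9 genes, and gave -0.028 for Smox in the difference. With the block and without the library of low depth, 8 of the 9 genes passed with LPS without serine, where 70.7% of 11107 genes did, and 1 in the withdrawal with LPS, where 8.3% did, and Oaz1 had 0.223 with LPS without serine. That setting gave -0.12 for Srm, -0.062 for Sms, -0.304 for Spr and -0.134 for Oaz1 in untreated withdrawal, and -0.056 for Odc1, 0.032 for Sat1, 0.234 for Spr and 0.018 for Oaz1 in the difference. Without the 4 libraries numbered 1, untreated withdrawal gave -0.117 for Slc7a2 and 0.057 for Smox, and the difference -0.041 for Odc1, -0.03 for Srm and -0.213 for Smox.

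Leaving out 1 library at a time gave these ranges. With LPS, Arg2 had -0.875 to 0.044 and Azin1 -0.127 to 0.012 with serine, and Oaz1 -0.375 to 0.25 without serine. Arg2 kept its sign with LPS without serine (0.319 to 2.277) and in the withdrawal with LPS (0.269 to 1.649), but moved by over 1.5 times. In the withdrawal with LPS, Nos2 had -0.324 to 0.154, Gch1 -0.023 to 0.1, Asl -0.157 to 0.006, Odc1 -0.029 to 0.138, Srm -0.08 to 0.191, Pts -0.107 to 0.135, Spr -0.233 to 0.007 and Smox -0.17 to 0.084. In untreated withdrawal, Arg2 had -1.505 to 0.008, Ass1 -0.456 to 0.372, Asl -0.082 to 0.03, Odc1 -0.036 to 0.108, Srm -0.07 to 0.179, Sms -0.058 to 0.368, Slc7a2 -0.22 to 0.156, Spr -0.279 to 0.48, Oaz1 -0.159 to 0.467 and Smox -0.168 to 0.194. In the difference, Ass1 had -0.666 to 0.162, Asl -0.135 to 0.027, Odc1 -0.074 to 0.114, Srm -0.126 to 0.146, Sat1 -0.742 to 0.028, Slc7a1 -0.368 to 0.116, Spr -0.561 to 0.2, Oaz1 -0.584 to 0.042 and Smox -0.216 to 0.146. The number of the 9 genes called was 5 to 7 with LPS without serine, where 51.5% to 63.4% of all genes were called. It was 7 with LPS with serine, where 51.1% to 66.9% were called. The 7 without serine came without the library of low depth, where 63.4% of all genes were called.

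With merged exon lengths, an alternative chosen after seeing the data, 5 of the 10 genes kept their rank by level per length in LPS-treated cells without serine and 6 in each other group.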
